A study of Rattus norvegicus with 8 samples.

Results

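Mitosis genes encode the proteins that carry a cell from the G2 phase through chromosome segregation to its division into daughter cells. The 40 genes described here are Mki67, Top2a, Ccna2, Ccnb1, Ccnb2, Cdk1, Cdc20, Plk1, Aurka, Aurkb, Bub1, Bub1b, Mad2l1, Ttk, Nek2, Ect2, Prc1, Kif11, Kif20a, Kif23, Kif2c, Kif4, Cenpe, Cenpf, Cenpa, Birc5, Nusap1, Tpx2, Ndc80, Nuf2, Spc25, Ube2c, Pttg1, Racgap1, Anln, Ncapg, Ncaph, Smc2, Smc4 and Melk, and they were chosen by symbol for their part in mitosis. Earlier results of the same arrays were known when the list was drawn up. A non-control probe whose gene name on the array equals the symbol was found for 39 of the 40 genes. Of these, 37 were measured well enough to be tested, among 17593 features tested in all. Kif4, a chromosome-associated kinesin, had no probe under that symbol. A probe named Kif4a, the present symbol of the gene, was not well above background on any array and lies outside the rule.

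Total RNA from the liver of 8 male Fisher 344 rats was hybridised to Agilent rat expression arrays in 1 colour, with 1 array for each animal. Furan, a small heterocyclic compound that causes liver tumours in rodents, was given by gavage to 4 rats at 8 mg per kg body weight a day, 5 days a week, for 90 days. The other 4 rats were controls. All animals were 18 weeks old, were taken 24 hours after the last treatment and differed, as far as the labels say, only in furan; the sources used here do not say what the controls received by gavage. Each slide held 2 arrays of each group, slide 1 with replicates 1 and 2 and slide 2 with replicates 3 and 4.

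The adult liver is a largely quiescent organ in which few hepatocytes divide, and its mitosis genes are therefore mostly silent. In cycling cells these genes are switched on together in G2 by the MuvB core with B-Myb and FOXM1, and in resting cells they are kept off by the DREAM complex, in which the same core works with p130 and E2F4. Both act through a short promoter element, the cell cycle genes homology region, which in many mitosis genes lies close to the start and downstream of boxes bound by the activator NF-Y. The proteins themselves are mostly destroyed at the end of each division by the anaphase promoting complex.

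RefSeq promoter sequences on the GRCr8 build, from 250 bases before to 50 bases after the annotated start, were at hand for 34 of the 40 genes. The stretches below run 5′ to 3′ from 160 bases before to 20 bases after the start, and their capitals mark TTTGAA or TTCGAA, the core of the homology region, and CCAAT, the NF-Y box, each read on both strands, so that ATTGG marks a CCAAT box on the other strand. Ccnb2, Cdk1, Cdc20 and Spc25 were chosen to show NF-Y boxes beside a homology region, Birc5 for a homology region next to the start, Kif23 as a gene that holds both motifs and was not called, and Kif2c as a gene that rose and holds neither.
Ccnb2: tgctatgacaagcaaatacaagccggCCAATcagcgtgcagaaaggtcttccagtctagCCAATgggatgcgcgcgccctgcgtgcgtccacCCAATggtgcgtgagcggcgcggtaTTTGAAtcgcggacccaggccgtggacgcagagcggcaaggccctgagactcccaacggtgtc
Cdk1: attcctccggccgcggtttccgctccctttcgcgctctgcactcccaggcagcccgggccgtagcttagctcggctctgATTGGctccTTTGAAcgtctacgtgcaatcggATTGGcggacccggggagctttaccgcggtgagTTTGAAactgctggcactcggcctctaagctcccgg
Cdc20: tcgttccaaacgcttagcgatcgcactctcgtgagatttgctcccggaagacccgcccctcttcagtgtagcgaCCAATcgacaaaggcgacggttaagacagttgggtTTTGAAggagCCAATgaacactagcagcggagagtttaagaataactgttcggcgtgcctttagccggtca
Spc25: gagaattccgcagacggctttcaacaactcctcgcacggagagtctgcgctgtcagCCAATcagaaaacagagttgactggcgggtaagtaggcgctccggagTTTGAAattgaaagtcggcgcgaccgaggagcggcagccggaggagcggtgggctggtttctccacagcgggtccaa
Birc5: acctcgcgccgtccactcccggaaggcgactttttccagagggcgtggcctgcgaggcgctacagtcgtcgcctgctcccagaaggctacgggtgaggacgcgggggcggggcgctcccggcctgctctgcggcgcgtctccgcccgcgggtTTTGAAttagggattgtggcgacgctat
Kif23: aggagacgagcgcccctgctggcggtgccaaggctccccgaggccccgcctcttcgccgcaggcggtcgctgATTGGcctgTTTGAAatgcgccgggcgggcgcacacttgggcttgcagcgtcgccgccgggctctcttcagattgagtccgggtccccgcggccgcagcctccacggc
Kif2c: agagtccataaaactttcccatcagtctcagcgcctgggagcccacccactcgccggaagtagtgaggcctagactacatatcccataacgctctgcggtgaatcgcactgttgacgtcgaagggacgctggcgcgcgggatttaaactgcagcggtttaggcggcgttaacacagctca
They lie at chr8:79981639-79981818 (minus strand), chr20:19265133-19265312 (plus strand), chr5:137255780-137255959 (minus strand), chr3:74396699-74396878 (minus strand), chr10:103571986-103572165 (plus strand), chr8:71320565-71320744 (minus strand) and chr5:135899193-135899372 (minus strand), in that order.

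TTTGAA or TTCGAA was found in 24 of the 34 promoters (70.6%, exact 95% interval 52.5% to 84.9%) and in 19.5% of all 27457 promoters of the same length. In all 24 the motif was TTTGAA, which 18.1% of all promoters held. Within 50 bases of the start it was found in 17 of 34 (50%), against 5.46% of all promoters. CCAAT was found in 24 of 34 (70.6%), against 37.7% of all, and both motifs in 19 of 34 (55.9%), against 7.83% of all. Melk, Aurka, Bub1, Kif2c and Ncaph held neither. The responses of genes with and without the motif overlapped. The 23 tested genes with TTTGAA or TTCGAA had a median log2 change of 2.38 (range 0.37 to 3.32), and the 9 without it 2.47 (range 1.06 to 2.87). These counts describe letters in a fixed window, and binding was not measured.

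**Figure D1:**
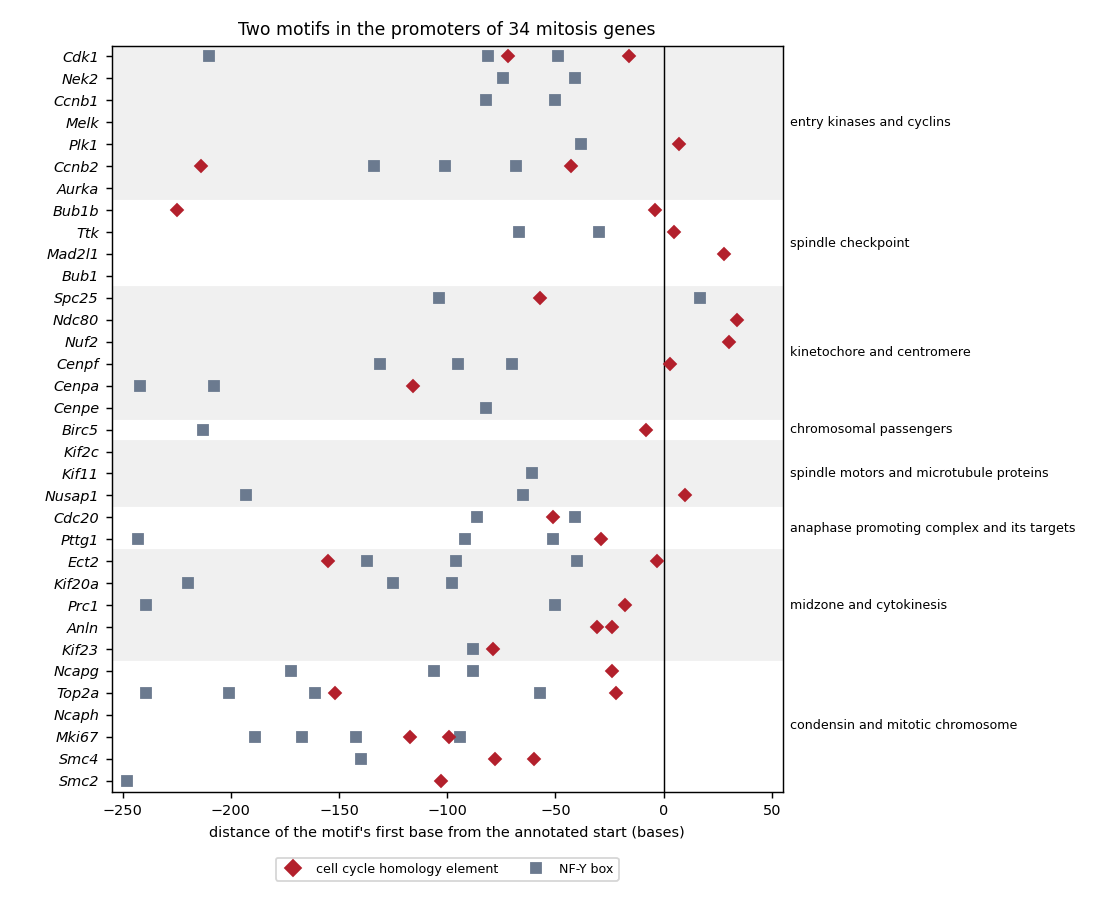
Positions of the homology region core (red diamonds) and of the NF-Y box (grey squares) in the promoters of 34 mitosis genes, one row per gene and grouped by role, with the distance of each motif's first base from the annotated start in bases on the horizontal axis. Red diamonds gather near the start, within 50 bases of it in 17 genes, and 5 genes have no mark.

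Mitosis genes were higher in furan-treated liver almost without exception. Of the 37 tested, 35 rose after furan (94.6%), where 17.2% of all features were called higher, and 0 fell, where 16.9% of all features were called lower (limma, Benjamini-Hochberg adjusted p below 0.05 over all features). The rise was at least 2-fold for 33 genes (5.12% of all features) and at least 4-fold for 24 (1.73% of all features). Of these 37 genes, 11 passed the detection rule only through the furan arrays, the group in which they are high, and so had to differ. Among the 26 that were well above background on all 8 arrays, 24 were called higher with a median log2 change of 2.15, where 17.3% of 16389 such features were called higher. Over all 37 the median log2 change was 2.38, with the middle of the genes between 1.45 and 2.72 and the whole range from 0.37 to 3.32, beside a median of -0.03 over all features. All 37 differences were positive, the 11 genes among them included, where the median of all features lay just below 0. An unadjusted limma p below 0.05 was found for 36 of the 37. In a fit of features well above background on all 8 arrays it was found for 25 of the 26. The share of all features with such a p was not counted. For 35 of the 37 genes every furan array lay above every control array, which held for 18.7% of all features. Cenpa and Kif23 were the 2 genes not called.

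Levels are log2 processed signals from which the 75th percentile of all non-control spots of that array was subtracted, so that 0 is that percentile. Many of the genes were dim in control liver. All 37 were well above background on all 4 furan arrays, but 26 of them (70.3%, against 93.1% of all features tested) were so on all 4 control arrays, 9 on 1 to 3 and 2 on none. The change of a gene that is dim on control arrays depends on how background is treated. For those 9 genes and those 2 the value from normexp background correction with an offset of 50 is therefore given beside the main one. The changes of the other 26 genes were smaller under that offset too. That of Ndc80 went from 2.95 to 0.83 and that of Racgap1 from 2.27 to 0.52, and the calls of Tpx2 and Smc4 ended. That offset compresses dim signals. In bulk tissue, more dividing cells and more of these transcripts per cell cannot be told apart. The animals are separate rats as the labels count them, and the number of arrays limits the precision.

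**Figure D2:**
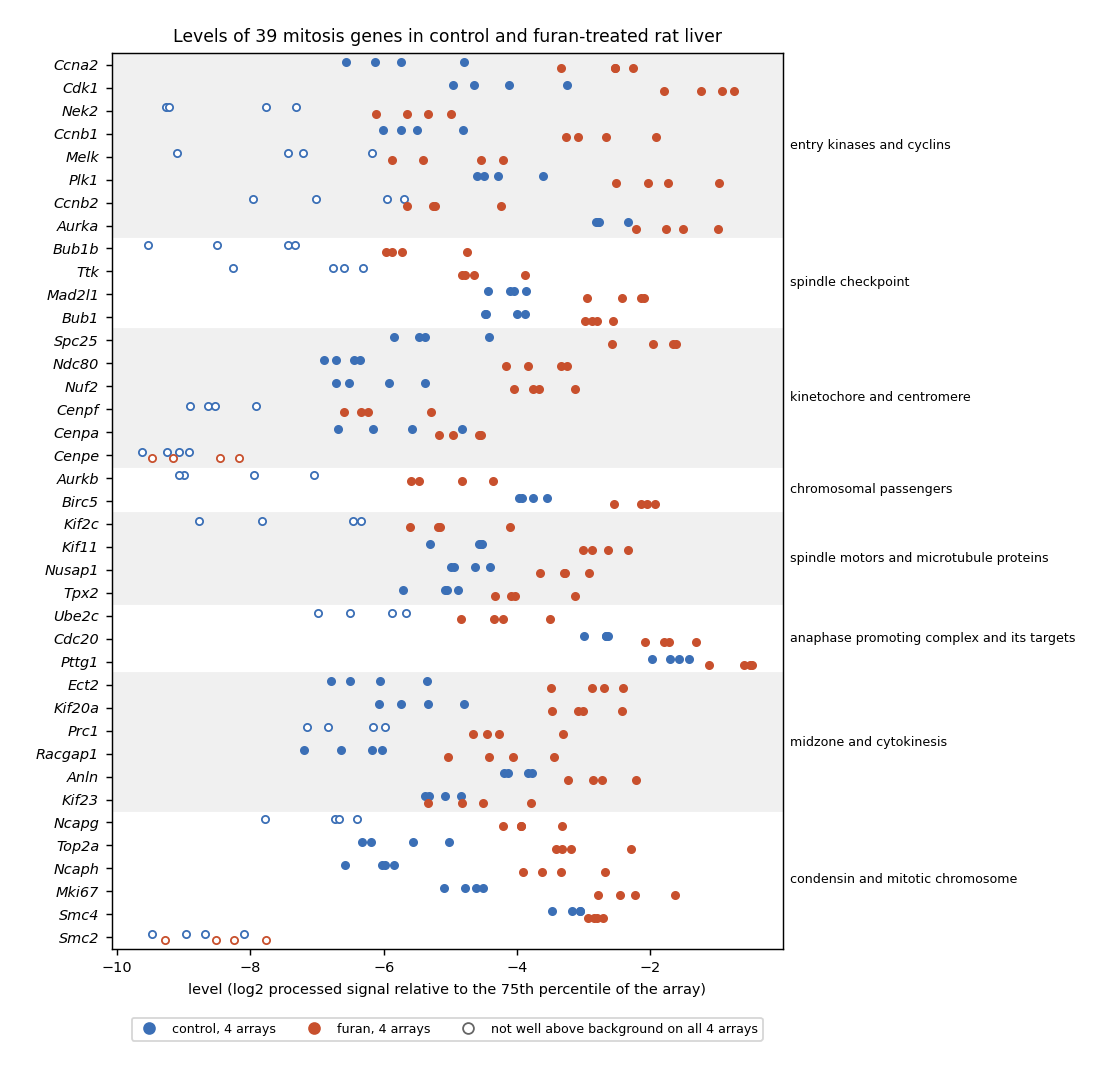
Level of 39 mitosis genes on each of the 4 control arrays (blue) and 4 furan arrays (red), in log2 units relative to the 75th percentile of the array, with genes in rows grouped by role; open circles mark a group in which the gene was not well above background on all 4 arrays. The furan points lie to the right of the control points in 35 genes, and Cenpe and Smc2 have open circles in both groups.

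The kinases and cyclins that start mitosis all rose: 8 of 8 were called higher, with a median log2 change of 2.63. Beside this count and those of the roles below, 17.2% of all features were called higher. The counts include the 11 genes that passed the detection rule only through the furan arrays. They are Nek2, Melk, Ccnb2, Bub1b, Ttk, Cenpf, Aurkb, Kif2c, Ube2c, Prc1 and Ncapg. Ccna2, cyclin A2, which drives the cell through S and G2 phase, was measured at -6.56, -5.74, -6.13 and -4.79 in control rats 1 to 4 and at -2.26, -2.54, -3.34 and -2.53 in furan rats 1 to 4. Its groups did not overlap, with control 4 the highest of the controls and furan 3 the lowest of the furan arrays. It rose by 3.14 ± 0.38 (SE, limma adjusted p = 0.00118). Ccnb1, cyclin B1, the partner that brings Cdk1 to full activity at mitotic entry, was measured at -5.50, -6.02, -5.74 and -4.81 in control rats 1 to 4 and at -1.92, -2.67, -3.27 and -3.08 in furan rats 1 to 4. Furan 1 stood highest and every furan array lay above every control, and the change was 2.78 ± 0.34 (SE, limma adjusted p = 0.00120). Cdk1, the kinase that both cyclins activate, was measured at -4.96, -4.12, -4.65 and -3.25 in control rats 1 to 4 and at -0.75, -0.92, -1.79 and -1.25 in furan rats 1 to 4. The order of the arrays was close to that of Ccna2, with control 4 nearest to the furan arrays and furan 3 nearest to the controls, and Cdk1 rose by 3.07 ± 0.38 (SE, limma adjusted p = 0.00120).

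Aurka, the kinase that matures the centrosomes, changed least among the 8 and was measured at -2.82, -2.77, -2.79 and -2.34 in control rats 1 to 4 and at -0.99, -1.51, -2.22 and -1.76 in furan rats 1 to 4. The groups did not overlap, though furan 3 lay close to control 4. The change was 1.06 ± 0.25 (SE, limma adjusted p = 0.0134). Plk1, polo-like kinase 1, which acts on centrosomes, kinetochores and cytokinesis, rose by 2.43 ± 0.34 (SE, limma adjusted p = 0.00189). Nek2, a kinase that separates the centrosomes, was well above background on all furan arrays and on no control array, as was Cenpf, a pattern shown by 0.574% of all features. With each control level raised to at least the floor of its array, the dimmest signal that counted as well above background there, Nek2 was at least 4.69-fold higher after furan (control mean -8.39, furan mean -5.53, limma adjusted p = 0.00337). This bound holds for the processed signal only. The log2 change of Nek2 was 0.10 with normexp and an offset of 50 (limma adjusted p = 0.552). With an offset of 1, tried after the data were seen, it was 1.43 (limma adjusted p = 0.00447). Melk, a kinase of dividing and progenitor cells, was well above background on 2 control arrays and rose by 2.47 ± 0.61 (SE, limma adjusted p = 0.0159), against 0.20 with normexp and an offset of 50 (limma adjusted p = 0.307). Ccnb2, cyclin B2, was well above background on 3 control arrays and rose by 1.56 ± 0.51 (SE, limma adjusted p = 0.0466), against -0.02 with normexp and an offset of 50 (limma adjusted p = 0.926). Its highest control lay only 0.05 below the lowest furan array, and its call ended when the slide was a term of the fit (adjusted p = 0.0604) and when any 1 array other than control 2 or control 4 was left out (limma adjusted p = 0.0542 to 0.106, log2 change 1.12 to 1.75).

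The spindle checkpoint, which holds a cell in metaphase until every chromosome is attached, rose in 4 of 4 tested genes, with a median log2 change of 2.08. Bub1b, the BubR1 pseudokinase of the checkpoint complex, was measured at -7.43, -8.50, -9.54 and -7.33 in control rats 1 to 4 and at -4.75, -5.72, -5.97 and -5.87 in furan rats 1 to 4. Controls and furan arrays were apart by 1.36, the 4 controls spread over more than 2 log2 units, and only 1 control array was well above background. Bub1b rose by 2.62 ± 0.51 (SE, limma adjusted p = 0.00592), against 0.01 with normexp and an offset of 50 (limma adjusted p = 0.960), and by 2.21 with dim signals raised to the floor of each array. Bub1, the kinase that recruits the checkpoint to kinetochores, was measured at -4.48, -3.88, -4.46 and -4.00 in control rats 1 to 4 and at -2.87, -2.56, -2.98 and -2.80 in furan rats 1 to 4. All 8 arrays were well above background, the groups were apart, and the change was 1.41 ± 0.17 (SE, limma adjusted p = 0.00118). Ttk, the Mps1 kinase at the head of the checkpoint, was well above background on 2 control arrays and rose by 2.45 ± 0.42 (SE, limma adjusted p = 0.00391), against 0.35 with normexp and an offset of 50 (limma adjusted p = 0.0893). Mad2l1, which binds and inhibits Cdc20, rose by 1.71 ± 0.21 (SE, limma adjusted p = 0.00119).

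Among kinetochore and centromere genes, 4 of 5 tested rose. Spc25, Ndc80 and Nuf2 encode subunits of the Ndc80 complex, which attaches kinetochores to spindle microtubules, and all 3 rose at least 5.57-fold. Spc25 was measured at -5.84, -5.38, -5.47 and -4.41 in control rats 1 to 4 and at -1.66, -1.62, -2.58 and -1.97 in furan rats 1 to 4. The groups did not overlap, with control 4 highest among controls and furan 3 lowest among furan arrays. Its change, the largest of the 37 genes, was 3.32 ± 0.33 (SE, limma adjusted p = 0.000591), a 9.98-fold rise. With normexp and an offset of 50 the change of Spc25 was 1.67 (limma adjusted p = 0.000229). The probe lies at chr3:51361186-51361245 on the rn4 build of the array annotation. Ndc80 rose by 2.95 ± 0.23 (SE, limma adjusted p = 0.000237), the smallest adjusted p of the set, and the lowest furan array lay 2.18 above the highest control. Nuf2 rose by 2.48 ± 0.31 (SE, limma adjusted p = 0.00134).

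Cenpa, the histone H3 variant that marks centromeres, was measured at -6.16, -6.69, -5.57 and -4.82 in control rats 1 to 4 and at -4.53, -4.58, -5.17 and -4.97 in furan rats 1 to 4. Control 4 lay above furan 3 and furan 4, so the groups overlapped. The difference was 1.00 ± 0.37 (SE, limma adjusted p = 0.0695), with a 95% interval of 0.14 to 1.85, and the gene was not called; without control 4 it was called (1.32, limma adjusted p = 0.0160). Cenpf, a large protein of the outer kinetochore, was at least 4.02-fold higher after furan by the bound used for Nek2 (control mean -8.50, furan mean -6.11, limma adjusted p = 0.00148). Its log2 change was -0.20 with normexp and an offset of 50 (limma adjusted p = 0.168). With an offset of 1 it was 0.86 (limma adjusted p = 0.0109). The other Cenpf probe, well above background on 1 furan array and on no control, was not tested. Its difference was 0.76 and its groups overlapped. Cenpe, the kinesin that moves chromosomes to the metaphase plate, was not well above background on any array and was not tested.

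Both chromosomal passenger genes rose. Aurkb, the kinase that corrects faulty attachments and later drives cytokinesis, was measured at -9.00, -7.94, -9.07 and -7.04 in control rats 1 to 4 and at -4.36, -4.83, -5.59 and -5.48 in furan rats 1 to 4. Of the controls 1 array was well above background, all 4 furan arrays were, and the groups were 1.45 apart. The rise was 3.20 ± 0.48 (SE, limma adjusted p = 0.00240), and 2.80 with dim signals raised to the floor of each array, against 0.27 with normexp and an offset of 50 (limma adjusted p = 0.109). Birc5, survivin, which brings Aurkb to the centromere, was measured at -3.77, -3.55, -3.96 and -3.92 in control rats 1 to 4 and at -2.06, -2.14, -2.54 and -1.93 in furan rats 1 to 4. It was well above background on all 8 arrays, its controls spread by little, and furan 4 rather than furan 1 was the highest. It rose by 1.63 ± 0.16 (SE, limma adjusted p = 0.000559).

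Spindle motors and microtubule proteins rose in 4 of 4 tested genes, with a median log2 change of 1.74. Kif2c, a kinesin that takes microtubules apart at centromeres, was measured at -6.34, -7.83, -8.77 and -6.45 in control rats 1 to 4 and at -4.11, -5.15, -5.60 and -5.19 in furan rats 1 to 4. The groups did not overlap, control 3 was the lowest of the controls, and 2 control arrays were well above background. Kif2c rose by 2.33 ± 0.57 (SE, limma adjusted p = 0.0148), against 0.13 with normexp and an offset of 50 (limma adjusted p = 0.570). With control 2 and furan 1 both left out the call ended (adjusted p = 0.0684). Tpx2, which activates Aurka on the spindle, was measured at -5.71, -5.06, -4.89 and -5.08 in control rats 1 to 4 and at -3.14, -4.09, -4.02 and -4.33 in furan rats 1 to 4. Furan 1 stood well above the other 3 furan arrays, all of which exceeded every control, and the change was 1.29 ± 0.28 (SE, limma adjusted p = 0.00944). With normexp and an offset of 50 the change of Tpx2 was 0.32 and not called (limma adjusted p = 0.0789). Kif11, the kinesin that pushes the spindle poles apart, rose by 2.02 ± 0.22 (SE, limma adjusted p = 0.000770). Nusap1, a protein that bundles spindle microtubules, rose by 1.45 ± 0.19 (SE, limma adjusted p = 0.00149).

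The activator, enzyme and substrate of the anaphase promoting complex rose in 3 of 3 cases. Ube2c, the ubiquitin-conjugating enzyme of the complex, was measured at -6.99, -5.88, -5.66 and -6.50 in control rats 1 to 4 and at -3.50, -4.22, -4.84 and -4.35 in furan rats 1 to 4. The groups were apart and 3 controls were well above background, with a rise of 2.03 ± 0.36 (SE, limma adjusted p = 0.00418), against 0.31 with normexp and an offset of 50 (limma adjusted p = 0.103). Pttg1, securin, which holds separase inactive until anaphase, was measured at -1.97, -1.70, -1.58 and -1.42 in control rats 1 to 4 and at -0.48, -0.51, -1.13 and -0.59 in furan rats 1 to 4. All arrays were well above background, furan 3 came closest to the controls, and the change was 0.99 ± 0.18 (SE, limma adjusted p = 0.00489). Cdc20, which activates the complex at the onset of anaphase, rose by 1.01 ± 0.17 (SE, limma adjusted p = 0.00391).

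Of 6 midzone and cytokinesis genes 5 rose, with a median log2 change of 2.31. Ect2, the exchange factor that activates RhoA at the division furrow, was measured at -6.80, -6.51, -6.06 and -5.36 in control rats 1 to 4 and at -2.70, -2.41, -3.49 and -2.88 in furan rats 1 to 4. Controls and furan arrays were 1.87 apart, furan 2 was the highest and furan 3 the lowest of their group. Ect2 rose by 3.32 ± 0.34 (SE, limma adjusted p = 0.000632), a 9.96-fold change. With normexp and an offset of 50 its change was 1.22 (limma adjusted p = 0.000674). Kif23 and Racgap1 are partners in centralspindlin, the complex that recruits Ect2 to the midzone. Kif23 was measured at -5.08, -4.83, -5.37 and -5.32 in control rats 1 to 4 and at -3.79, -4.82, -5.34 and -4.52 in furan rats 1 to 4. Furan 3 lay among the controls and furan 2 barely above them, so the groups overlapped, and only furan 1 and furan 4 stood clear. The difference was 0.54 ± 0.30 (SE, limma adjusted p = 0.205), with a 95% interval of -0.16 to 1.23, and was not called. Racgap1 rose by 2.27 ± 0.37 (SE, limma adjusted p = 0.00318); the difference between the changes of the partners was not tested.

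Prc1, which bundles the antiparallel microtubules of the midzone, was well above background on 3 control arrays and rose by 2.36 ± 0.35 (SE, limma adjusted p = 0.00238), against 0.50 with normexp and an offset of 50 (limma adjusted p = 0.0336). Kif20a, a kinesin that carries the chromosomal passengers to the midzone, rose by 2.48 ± 0.31 (SE, limma adjusted p = 0.00120). Anln, anillin, the scaffold of the contractile ring, rose by 1.22 ± 0.22 (SE, limma adjusted p = 0.00422). All 3 had every furan array above every control.

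Condensin and mitotic chromosome genes rose in 5 of 5 tested, with a median log2 change of 2.72. Ncapg, a regulatory subunit of condensin I, was measured at -6.40, -6.72, -7.78 and -6.66 in control rats 1 to 4 and at -3.95, -3.32, -4.22 and -3.95 in furan rats 1 to 4. The lowest furan array lay 2.19 above the highest control, the widest gap among the 37 genes. With 3 controls well above background, Ncapg rose by 3.04 ± 0.31 (SE, limma adjusted p = 0.000645), against 0.76 with normexp and an offset of 50 (limma adjusted p = 0.00236). The other Ncapg probe, well above background on 1 furan array and on no control, was not tested, and its groups overlapped. Ncaph, the kleisin subunit of the same complex, rose by 2.72 ± 0.27 (SE, limma adjusted p = 0.000604). Smc4, a core ATPase shared by both condensins, was measured at -3.18, -3.47, -3.06 and -3.06 in control rats 1 to 4 and at -2.80, -2.71, -2.85 and -2.93 in furan rats 1 to 4. The furan arrays lay within a narrow range just above the controls, with a change of 0.37 ± 0.12 (SE, limma adjusted p = 0.0468), the smallest of those called, and the call ended with the slide in the fit (adjusted p = 0.0597) and without any 1 of the 8 arrays (limma adjusted p = 0.0522 to 0.116, log2 change 0.28 to 0.42). Smc2, its partner ATPase, was well above background on 1 furan array and on no control and was not tested.

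Mki67, the Ki-67 protein that coats mitotic chromosomes and is the usual histological marker of cycling cells, was measured at -5.10, -4.78, -4.62 and -4.51 in control rats 1 to 4 and at -1.64, -2.23, -2.78 and -2.46 in furan rats 1 to 4. Each of these is a mean of up to 10 spots of 1 probe (chr1:195310145-195310204 on rn4), every array was well above background, and the groups were 1.73 apart. Mki67 rose by 2.47 ± 0.25 (SE, limma adjusted p = 0.000591), a 5.56-fold change, and its other 2 probes changed by 2.01 and 2.70 in the same direction. Top2a, the topoisomerase that untangles sister chromatids, rose by 2.72 ± 0.35 (SE, limma adjusted p = 0.00135). Its dimmer probe, not well above background on any control array, was at least 3.92-fold higher by the bound used for Nek2. Across the 9 genes with more than 1 probe, 6 of the 10 further probes passed the detection rule. All 6 had every furan array above every control, which held for 18.7% of all features. Only the Mki67 probe that changed by 2.01 was well above background on every array. The rest of the 6 passed only through the furan arrays, the group in which they are high, so their separation is no independent check. The 4 of the 6 that were well above background on some or all control arrays differed by 2.01 to 2.87. Those of Nek2 and Top2a, dim on every control, were at least 3.67-fold and 3.92-fold higher. The other 4 were too dim to be tested, and that of Bub1 was not well above background on any array. They differed by 2.06 for Prc1, 0.85 for Ncapg, 0.76 for Cenpf and -0.30 for Bub1, and the groups overlapped for all but Prc1.

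**Figure D3:**
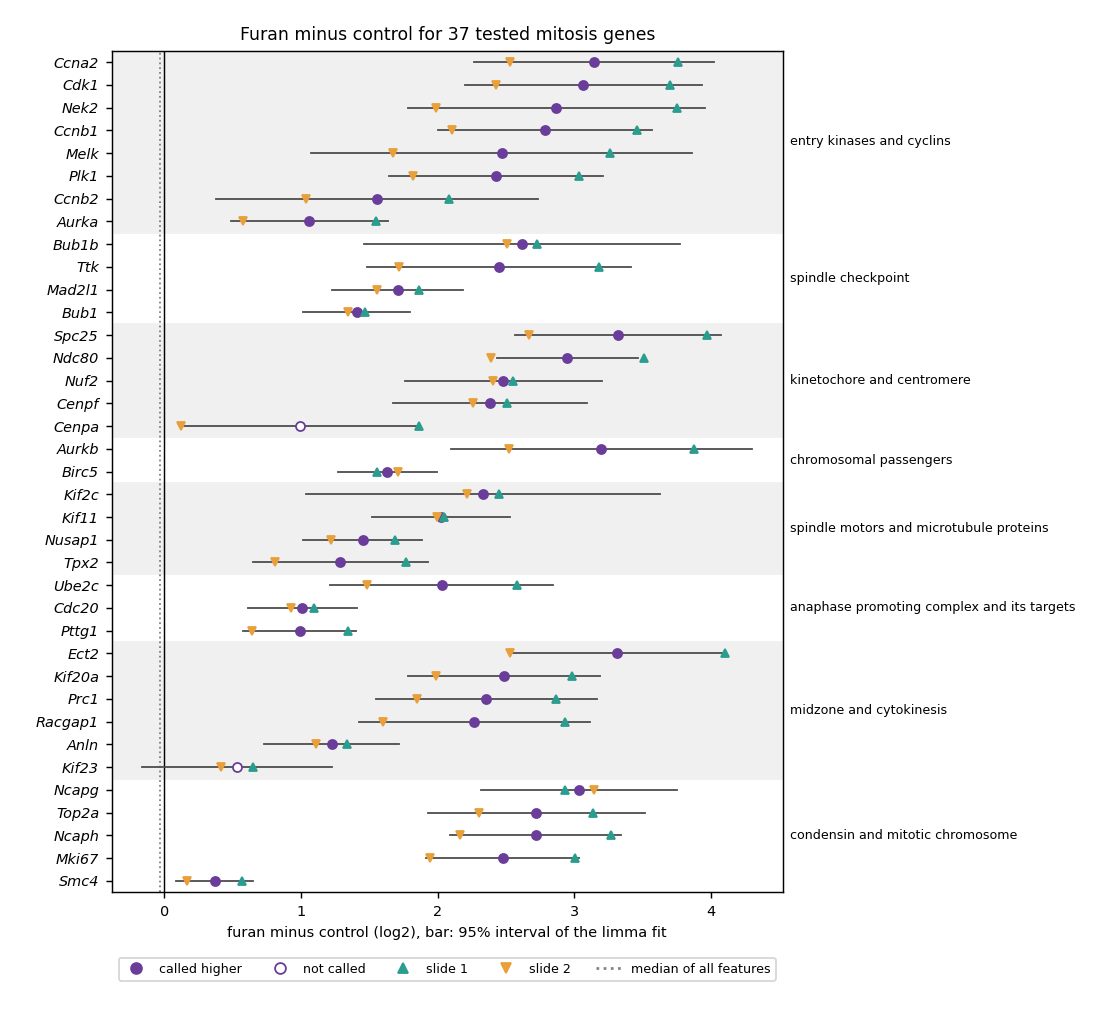
Furan minus control on the log2 scale for 37 mitosis genes (circles, filled where called) with the 95% interval of the limma fit, and the same difference within slide 1 (upward triangles) and slide 2 (downward triangles); the dotted line is the median of all features at -0.03. All circles lie to the right of 0, the interval of Kif23 includes 0, and 35 genes have the upward triangle to the right of the downward one.

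The furan animals differed among themselves in a way that the mitosis genes shared. Furan 1 had the highest level of its group in 29 of 37 genes (78.4%, against 33.8% of all features) and furan 3 the lowest in 35 (94.6%, against 26.6% of all features and 51.4% of the features called higher). The median deviation from the group mean was 0.57 on furan 1, 0.05 on furan 2, -0.50 on furan 3 and -0.13 on furan 4. Among controls it was -0.35, 0.13, -0.22 and 0.33 on arrays 1 to 4, and control 4 was the highest control in 22 genes (59.5%, against 23.7% of all features). Over all features the same median deviations stayed between -0.05 and 0.07. Each array is 1 animal, so these are differences between single livers as hybridised, with the spot-to-spot coefficient of variation at 20.9% on furan 1 and at most 14.6% on the other 7 arrays; its part in the order of the arrays was not tested.

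The spread of the mitosis genes was also wider than that of other features, with a median SD of 0.53 among controls and 0.47 among furan arrays, against 0.18 and 0.25 over all features. It was 0.34 and 0.44 for the 26 genes well above background on all 8 arrays, and 0.96 and 0.57 for the other 11. The mitosis genes were dimmer, with a median control level of -5.77 against -1.62 over all features. Spread was not compared with that of features of equal brightness. Leaving out furan 1 lowered the median log2 change to 2.11, and leaving out furan 3 raised it to 2.54. Differences were positive on both slides for all 37 genes, with a median of 2.73 on slide 1 and 1.85 on slide 2. The difference was larger on slide 1 for 35 of 37 genes (94.6%, against 43.2% of all features and 55.7% of those called higher), Birc5 and Ncapg being the exceptions. The test of the furan by slide difference called 0 genes, as it called 0 of all features (0%; limma adjusted p below 0.05), and 8 of the 37 genes (21.6%) had an unadjusted p below 0.05, against 6.3% of all features.

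**Figure D4:**
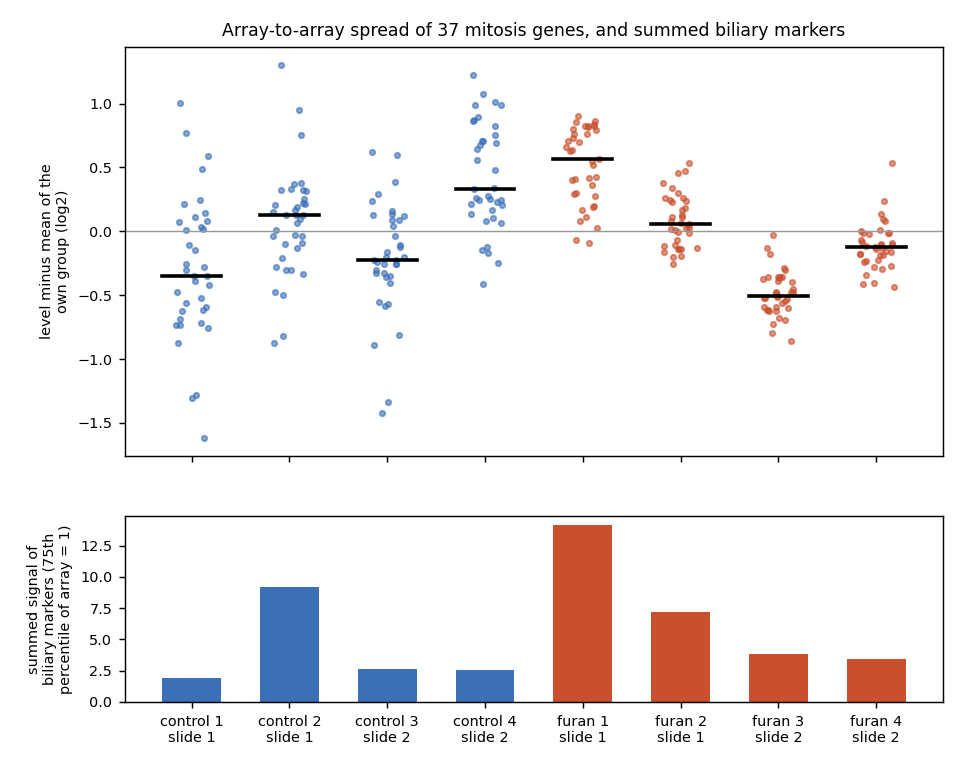
Upper panel: level of each of 37 mitosis genes minus the mean of its own group (log2) on the 8 arrays, with the median as a black bar; lower panel: summed signal of 12 biliary markers on the same arrays, with the 75th percentile of each array as 1. Furan 1 lies highest at 0.57 and furan 3 lowest at -0.50 among furan arrays. The biliary sum is highest on furan 1 at 14.2 and, among furan arrays, lowest on furan 4 at 3.42. Sums not drawn here were also highest on furan 1 among furan arrays for stellate and matrix, macrophage, lymphocyte, and mast cell and neutrophil markers. Those of hepatocyte, endothelial and erythroid markers were not.

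Markers of the cell types of the liver were read on the same arrays. Beside the counts of called markers below, 17.2% of all features were called higher and 16.9% lower. Hepatocyte markers, with Ttr and Tf as the brightest, were well above background on all arrays in 12 of 12 cases; 9 fell, 1 rose, and their summed signal ran from 2078 to 2470 times the 75th percentile in controls and from 1398 to 1740 after furan. Biliary and ductular markers, with Anxa4 and Epcam as the brightest, rose in 3 of 12 cases (Epcam, Sox9 and Anxa4) and fell in 0; the summed signal was 1.90, 9.23, 2.61 and 2.57 in control rats 1 to 4 and 14.2, 7.23, 3.83 and 3.42 in furan rats 1 to 4. Control 2, with a biliary sum above those of furan 2, 3 and 4, had a median mitosis gene level of -5.56. The control range was -6.16 to -5.02 and the furan range -3.66 to -2.87. Epcam, Sox9 and Anxa4, the biliary markers that rose, were each lower on control 2 than on every furan array. Control 2 is 1 animal, and the relation of biliary markers to mitosis gene levels was not tested. None of 10 tested stellate and matrix markers (Col3a1 and Col1a2 brightest; 5.02 to 17.4 and 7.04 to 29.3), of 11 macrophage markers (Lyz2 and Clec4f; 51.5 to 70.8 and 48.9 to 61.7) or of 10 endothelial markers (Kdr and Pecam1; 6.75 to 24.3 and 12.8 to 15.3) was called. Lymphocyte markers (Ptprc and Cd3d brightest) were called lower in 1 of 9 tested (Cd8b), with sums of 0.497 to 0.899 and 0.524 to 1.10, and Ms4a1, the B cell marker CD20, was not well above background on any array. Of 3 tested mast cell and neutrophil markers S100a9 fell (S100a9 and S100a8 brightest; 0.282 to 1.08 and 0.115 to 0.289), and Fcer1a and Elane were not well above background on any array. Erythroid markers (Hba1 and Hbb brightest; 329 to 615 and 249 to 341) had 1 of 7 called lower, Slc4a1. The part of any of these cell types in the mitosis gene levels was not tested.

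Regulators of mitotic transcription were called about as often as other features. Of 20 tested from a list of 25, 4 rose (20%, against 17.2% of all features), 3 fell (15%, against 16.9%) and 13 were not called, with a median log2 change of -0.24. Mybl2, which encodes B-Myb, rose most, with mean levels of -4.96 ± 0.60 in controls and -2.45 ± 0.21 after furan (SD, n = 4 in each group), by 2.52 ± 0.28 (SE, limma adjusted p = 0.000851). Lin9, a subunit of the MuvB core, rose by 1.25 ± 0.17 (SE, limma adjusted p = 0.00161). Of the other subunits of that core, looked up after their values were seen, Lin54 fell by 0.61 (limma adjusted p = 0.00486), and Lin37 (0.05), Lin52 (0.24) and Rbbp4 (0.06) were not called. E2f1, an activator of S phase genes, rose by 0.89 ± 0.16 (SE, limma adjusted p = 0.00466). Foxm1, the forkhead factor of G2 genes, rose by 0.50 ± 0.16 (SE, limma adjusted p = 0.0439), close to the threshold. Tfdp2, a dimer partner of E2F factors, fell by 0.68 (limma adjusted p = 0.00439). Rbl1, which encodes p107, was well above background on 3 furan arrays and no control and was not tested, and E2f4 had no probe under its symbol.

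Mitosis genes outside the 40 showed the same direction. From a list of 54 further ones, 41 were tested, 31 rose, 1 fell and 9 were not called, with a median log2 change of 1.86. These were 75.6% higher and 2.44% lower, against 17.2% and 16.9% of all features. Among the 26 of them well above background on all 8 arrays, 17 rose and 1 fell, where 17.3% of such features were called higher. Pbk, a mitotic kinase, rose by 3.50 ± 0.43 (SE, limma adjusted p = 0.00119), with 1 control array well above background. Cdca2, which targets a phosphatase to anaphase chromatin, rose by 3.46 ± 0.27 (SE, limma adjusted p = 0.000270), with 2 control arrays well above background. Kif22, a kinesin that binds chromosome arms, rose by 3.33 ± 0.36 (SE, limma adjusted p = 0.000770). Lmnb1, lamin B1 of the nuclear envelope, was the gene that fell, by 1.00 (limma adjusted p = 0.00177). Of 28 DNA replication genes, all tested, 21 rose (75%) and 0 fell, with a median of 1.13. Among the 23 of them well above background on all 8 arrays, 17 rose and 0 fell. The others passed the detection rule only through the furan arrays. Rrm2, a ribonucleotide reductase subunit, rose by 3.42 ± 0.48 (SE, limma adjusted p = 0.00192). Mcm5 of the replicative helicase rose by 2.61 ± 0.30 (SE, limma adjusted p = 0.000905), and Tyms, thymidylate synthase, by 2.60 ± 0.23 (SE, limma adjusted p = 0.000399).

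The constitutive machinery of anaphase was called no more often than other features. Of 21 tested genes of the anaphase promoting complex, cohesin and related factors, 3 rose and 3 fell (14.3% each, against 17.2% and 16.9% of all features) and 15 were not called, with a median of 0.12. Anapc2, the cullin of the complex, rose by 0.62 ± 0.09 (SE, limma adjusted p = 0.00228), Anapc4 by 0.45 ± 0.10 (SE, limma adjusted p = 0.00996), and Cdc16 by 0.35 ± 0.11 (SE, limma adjusted p = 0.0406). Cdc14b, a phosphatase, fell by 0.58 (limma adjusted p = 0.0145). Genes that restrain mitotic entry went both ways, with 7 of 18 higher (38.9%), 4 lower (22.2%) and a median of 0.31. Chek1, the checkpoint kinase of replication stress, rose by 1.69 ± 0.15 (SE, limma adjusted p = 0.000345). Pkmyt1 and Wee1, the kinases that place inhibitory phosphates on Cdk1, rose by 1.59 ± 0.19 (SE, limma adjusted p = 0.00107) and by 1.39 ± 0.22 (SE, limma adjusted p = 0.00270). Btg1, an antiproliferative gene of resting cells, fell by 1.14 (limma adjusted p = 0.00399). These lists, like the 40 genes, were drawn up with earlier results of the same arrays known.

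How background is handled set the size of the change. With normexp background correction and an offset of 50, the median log2 change of the 37 genes was 0.75 and 24 were called higher, with 0 lower; Ccnb2, Cenpa, Cenpf and Kif23 then had differences just below 0, between -0.20 and -0.02, none of them called. The calls of Nek2, Melk, Bub1b, Ttk, Aurkb, Kif2c, Tpx2, Ube2c, Smc4, Ccnb2 and Cenpf ended. That offset equals a level between -5.03 and -4.14 on the arrays, above the control mean of 27 of the 37 genes and above the furan mean of 7. The other 10 genes, with control means above it, gave smaller values too, from 0.17 to 2.11; 9 of them stayed called and Smc4 did not. With an offset of 1, tried after the data were seen, the median was 1.58 and 34 genes were called. With the offset of 50, 7 of 20 tested regulators of mitotic transcription were called lower, as were 3 of 41 further mitosis genes. Of 28 DNA replication genes 2 were called lower. Among all 17593 features 5972 were called lower, so the regulators were near the share of all features and the other lists below it. Over all features the offset of 50 called 2779 higher and 5972 lower (31.8% of calls higher, against 50.5% with the processed signal) and moved the median of all features to -0.18. Raising dim signals to the floor of each array left 35 genes called and a median of 2.23.

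**Figure D5:**
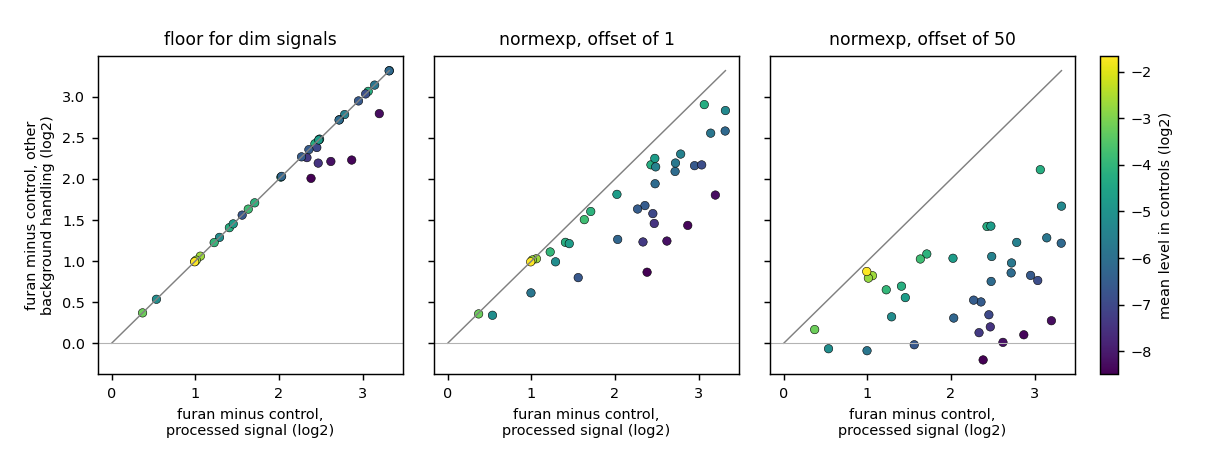
Furan minus control of 37 mitosis genes on the log2 scale under 3 other ways of handling background (vertical axes), against the value from the processed signal (horizontal axes), coloured by the mean level in controls; the line marks equal values. With a floor for dim signals most points stay on the line. With a normexp offset of 50 the genes darkest in colour, dim in controls, fall furthest below it. The 4 points just under 0 are Ccnb2, Cenpa, Cenpf and Kif23, of which Cenpa and Kif23 are not among the darkest.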

How the data were processed

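The authors scanned 8 1-colour (Cy3) arrays and extracted spot signals with Agilent Feature Extraction 10.7, per the submitters' processing notes and the file headers. The deposited scanner files hold a background-subtracted processed signal per spot in intensity units, not log transformed, in which the software replaces signals too dim to measure by a small surrogate value. The series table deposited by the authors holds the same intensity scaled to a 75th percentile of 1000. Of 62976 spots 58717 were not controls. Spots flagged as non-uniform or as population outliers were left out, spots of a probe were averaged on the log2 scale, and 30197 of 30367 probes remained. The log2 75th percentile of the non-control spots was subtracted on each array (827 to 1057 intensity units in controls, 1256 to 1596 after furan). A probe was tested where it was well above background, in at least 0.5 of its spots, on all 4 arrays of a group, which held for 20268 probes, and the brightest of each gene was kept, which left 17593 features under the gene names of the array. Probe coordinates are on rn4 as the array annotation gives them, and promoter coordinates on GRCr8 as RefSeq gives them.

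Groups came from the sample labels. The furan and control groups were tested in R 4.3.3 with limma 3.58.1 (lmFit, then eBayes with no variance trend, two-sided); p-values were adjusted over every feature tested by Benjamini-Hochberg and called below 0.05. On simulated data with 17593 features the fit called 92% of 50 features raised by 2 log2 units, 62% of 50 raised by 1 and 0.0287% of 17393 left unchanged. All listed genes could be named, with full values for those of the largest and smallest change of their role and for Mki67, Ccnb1, Cdk1 and Aurkb. Of each further list up to 3 called genes in the more frequent direction and 1 in the other were named, and Foxm1, Mybl2, Lin9, Rbl1 and E2f4 whatever their values. The 40 genes and all lists were chosen with earlier results of these data known. Alternatives covered background correction, scaling, detection, probe choice, slide and replicate terms, variance trend, array weights, each slide alone and each array left out.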

Additional observations from a re-analysis of the deposited data

Results flagged for a closer look

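In 3 genes 1 control array stood apart from the other 3 by Dixon's gap ratio for 4 samples. Aurka was highest on control 4, at a level of -2.34, with the other controls between -2.82 and -2.77. Kif11 was lowest on control 3, at -5.31, with the others between -4.57 and -4.52. Cdc20 was lowest on control 3 as well, at -3.00, with the others between -2.66 and -2.64. They are 3 of 74 groups of 4 looked at, where chance alone gives about 1 in 20, and Aurka, Kif11 and Cdc20 were called higher after furan without each of these arrays.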

How the results depend on the processing

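The number of mitosis genes called higher lay between 33 and 35 when any 1 array was left out, and 0 were called lower in any setting run. The median log2 change then lay between 2.11 and 2.55, and features called lower numbered 1931 to 3004, the lowest count without furan replicate 2. With normexp and an offset of 50 the median was 0.75, 5972 features were called lower, and Ccnb2 (-0.019), Cenpa (-0.091), Cenpf (-0.20) and Kif23 (-0.067) had differences below 0. With an offset of 1, chosen after the data were seen, the median was 1.58. With slide 1 alone, 19 mitosis genes, 319 higher and 218 lower features were called; with slide 2 alone the features were 852 and 617 and the median 1.85, each with 2 arrays per group. With the positive-and-significant flag in place of the well-above-background flag, 0 genes were detected on all furan and no control arrays, in place of Nek2 and Cenpf. A replicate block called 33 genes, losing Ccnb2 (adjusted p = 0.0987) and Smc4 (0.118), with 2360 higher and 2169 lower features; same-numbered arrays of the groups deviated from their group means with correlations of -0.30, 0.12, 0.28 and 0.04, so the numbers were not taken as pairs, and not every array correlated best with its own number. Over all settings 66 values of single genes kept their sign but lost the call, most often Ccnb2 and Smc4; Cenpa was called without control 4 (1.32) and on slide 1 alone (1.87). Except for the background settings, the cause of these shifts was not tested. Signal over background limits the 11 tested genes that were not well above background on all control arrays, and Cenpe and Smc2 were too dim to be tested.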
